A study of Homo sapiens with 2 samples.

Results

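DUSP4, HIF1A and PERP carried 4 of the 647 peaks listed by acRIP-seq in A549 cells, on 3 of the 490 genes with a listed peak. The peaks were found by gene name in the deposited peak table. HIF1A held 2 of them, and DUSP4 and PERP held 1 each. The 3 genes themselves were chosen from the authors' own comparison of the NAT10 knockout with the control, so they are not a neutral sample of ac4C peaks. The values of that comparison were not used here, and no other column separates the libraries. The change of these peaks after NAT10 knockout was therefore not analysed here.

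A549 is a human lung adenocarcinoma cell line, labelled here as non-small cell lung cancer. The experiment held 1 Control library, from A549 cells without an edit, and 1 NAT10 ko library, from a single clone in which CRISPR/Cas9 with a pair of guides had deleted part of NAT10 on all copies. No drug treatment or time course is given in the labels. In acRIP-seq, fragmented RNA is captured with an antibody against N4-acetylcytidine (ac4C) and sequenced beside an input sample. A peak is a transcript segment that the antibody captured in excess of the input. The table gives each peak 1 fold enrichment and 1 p-value and names no library for them. They were read as values over both libraries together, and no value below can be assigned to the Control or to the NAT10 ko cells alone. No read counts entered the report and the depth behind each value is unknown, so a fold enrichment has no interval and no replicate error.

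NAT10 is the acetyltransferase that writes ac4C on RNA. The mark was first known from tRNA and rRNA, and on mRNA it has been linked to transcript stability and translation. The 3 transcripts encode proteins of different signalling branches. DUSP4 is a nuclear dual-specificity phosphatase that removes phosphate from MAP kinases such as ERK and so limits their activity. HIF1A is the oxygen-regulated subunit of the hypoxia-inducible transcription factor, degraded when oxygen is plentiful and stabilised when it is scarce. PERP is a membrane protein induced by p53 that takes part in apoptosis and is also a component of desmosomes, the junctions that hold epithelial cells together.

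The 4 peaks had folds in the lower and middle range of the list. DUSP4 had the highest fold enrichment over input of the 3 genes, at 2.46. The HIF1A peaks stood at 1.77 in the coding sequence (CDS) and 1.57 in the 3' untranslated region (3'UTR). PERP was the lowest, at 1.51. Only the DUSP4 peak lay above the median of all 647 listed peaks, which was 2.24, within a range from 1.13 to 203. A fold of at least 2 was reached by 1 of the 4 peaks, against 60.0% of all listed peaks. The 95% Wilson interval of that share was 56.1% to 63.7%. It covers only counting error over the list, as if the listed peaks were independent draws. The false discovery rate (FDR) of the enrichment, as deposited, was under 0.05 at all 4 peaks, against 75.7% of the list. Whether neighbours in this order of folds differ cannot be said without an error for each value.

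**Figure D1:**
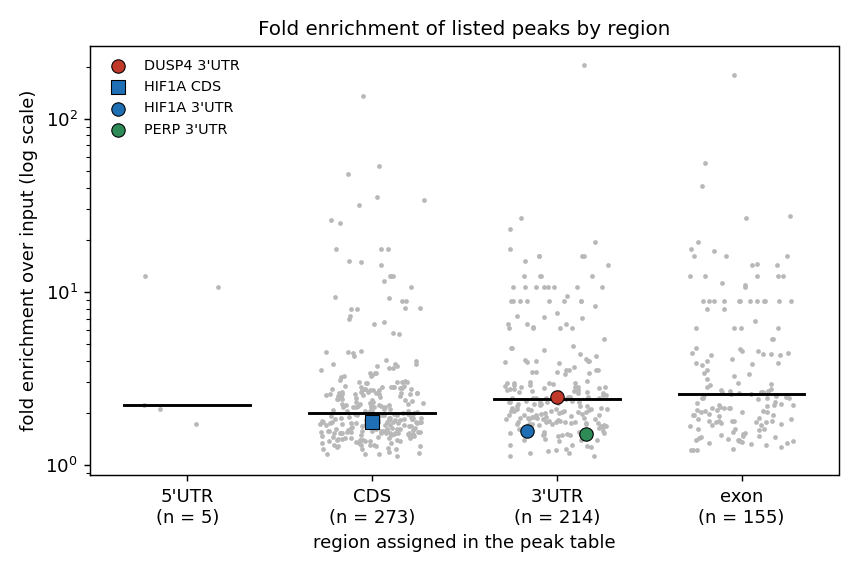
Fold enrichment over input (log scale) of each listed peak, by the region the peak table assigns. Grey points are peaks, black lines are the medians of a region, and the coloured symbols are the peaks of DUSP4, HIF1A and PERP. The DUSP4 peak sits just above the 3'UTR median, and the peaks of HIF1A and PERP sit below the medians of their regions.

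The DUSP4 peak (ENSG00000120875) was located on chromosome 8, minus strand, from 29336242 to 29336422 (hg38) and was assigned to the 3'UTR. It was a single block of 181 bases. DUSP4 spans 17621 bases in the RefSeq annotation, from 29333064 to 29350684, and the peak ended 3178 bases before the annotated 3' end. Of the 207 listed 3'UTR peaks with a matched gene, 77.3% lay nearer to the 3' end of their gene. The median of that distance was 1078 bases. The fold of 2.46 exceeded that of 56.0% of all listed peaks and of 52.3% of the 214 in a 3'UTR, where the median was 2.42. Its enrichment p was 1.6e-06 and its FDR was 0.000501.

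HIF1A (ENSG00000100644) lies on the plus strand of chromosome 14, from 61695513 to 61748258 in the RefSeq annotation. Its CDS peak ran from 61740553 to 61745616 and consisted of 4 blocks, joined across gaps as a spliced transcript would be. The blocks held 75, 434, 109 and 12 bases in the direction of transcription, and the gaps between them measured 127, 3516 and 791 bases. The second block, from 61740755 to 61741188, made up 68.9% of the 630 bases covered. With that width the peak was broader than 94.9% of the listed peaks. Its fold of 1.77 was below the CDS median of 2.0 and exceeded 36.3% of the 273 CDS peaks. Its enrichment p of 4e-32 was the smallest of the 4 peaks.

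The second HIF1A peak was assigned to the 3'UTR. It was a single block of 181 bases from 61747001 to 61747181, starting 1384 bases after the end of the CDS peak and ending 1077 bases before the annotated 3' end of the gene. That distance lay close to the median of the 3'UTR peaks. The fold of 1.57 exceeded 13.6% of the 3'UTR peaks, and the enrichment p was 3.4e-09. Within HIF1A, the CDS peak therefore had 1.13 times the fold of the 3'UTR peak. HIF1A was 1 of 30 listed genes with a peak in both regions. Taking the highest fold in each region, the CDS was higher in 14 of these genes, the 3'UTR in 15, and both were equal in 1. The ratio of CDS to 3'UTR ran from 0.158 to 5.84 with a median of 0.984, and 9 genes had a higher ratio than HIF1A. The difference between both HIF1A peaks was thus small against the spread among genes.

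The RefSeq annotation places antisense genes over HIF1A. By whole gene span and peak extent, gaps between blocks included, HIF1A-AS3 overlaps both peaks and HIF1A-AS2 overlaps the 3'UTR peak. Exons of these antisense genes were not compared with the peak blocks. Whether the counting used strand is not given in the sources used here. Reads from HIF1A and from these antisense genes were therefore not separated. No antisense gene has a listed peak within the span of HIF1A. The peaks of DUSP4 and PERP overlap no other gene of the annotation, and no listed peak of another gene overlaps any of the 4 peaks.

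The PERP peak (ENSG00000112378) was located on chromosome 6, minus strand, from 138091054 to 138091294, in the 3'UTR, as a single block of 241 bases. It ended 2549 bases before the annotated 3' end of PERP, which spans 138088505 to 138107419, and 71.5% of the 3'UTR peaks lay nearer to theirs. Its fold of 1.51 exceeded 13.9% of all listed peaks and 9.81% of those in a 3'UTR. PERP also had the weakest support of the 4 peaks, with an enrichment p of 3.8e-05 and an FDR of 0.0107. At an FDR under 0.01 the other 3 peaks remained listed, and 70.5% of the whole list did.

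**Figure D2:**
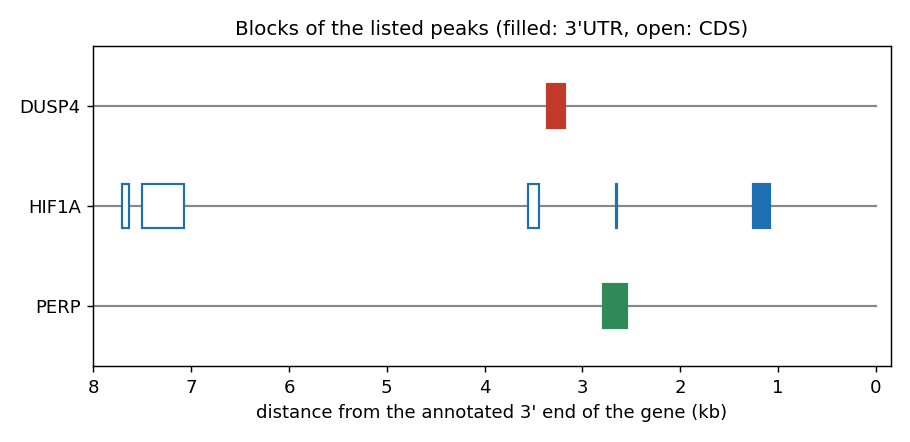
Blocks of the 4 listed peaks against the distance in kb from the annotated 3' end of each gene, with transcription running from left to right. Filled boxes are 3'UTR peaks and open boxes are the 4 blocks of the HIF1A CDS peak, the last of which is 12 bases wide. Each 3'UTR peak stops short of the annotated 3' end, by 3178 bases in DUSP4, 1077 in HIF1A and 2549 in PERP.

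The 3 peaks in a 3'UTR shared a compact shape, with 1 block of 181 or 241 bases. This is the common form in that region, since 88.3% of the listed 3'UTR peaks had a single block and their median width was 180 bases. Among single-block peaks of the whole list, 81.3% had a width at a multiple of 30 bases or 1 base above it, as these 3 have. Such widths are spaced by 30 bases, and the edges given above should be read with that resolution. The CDS held fewer single-block peaks, at 38.8%, and the 4-block peak of HIF1A belonged to the larger group there.

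The order of the peaks by fold and by p was not the same. The DUSP4 peak had the highest fold of the 4, but its p was smaller than that of only 36.9% of the listed peaks. The HIF1A CDS peak had a lower fold, and its p was smaller than that of 78.8%. Among the 91 other peaks within 0.1 (log2) of the fold of the HIF1A CDS peak, 78 had a larger p, and the median log10 p was -7.51 against -31.4. Among the 62 peaks equally near to DUSP4, 16 had a larger p, with a median log10 p of -12.2 against -5.8. PERP had a log10 p of -4.42, and 14 of the 70 peaks near it in fold had a larger p. The HIF1A 3'UTR peak, with a log10 p of -8.47, lay near the middle of its neighbours, where 37 of 71 had a larger p. The peak with the smallest p, that of HIF1A in the CDS, was also the widest, at 630 bases. The other 3 did not follow that order, since PERP had the largest p at 241 bases and the DUSP4 and HIF1A 3'UTR peaks differed in p at the same 181 bases. The part of width in the p-values was not tested.

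**Figure D3:**
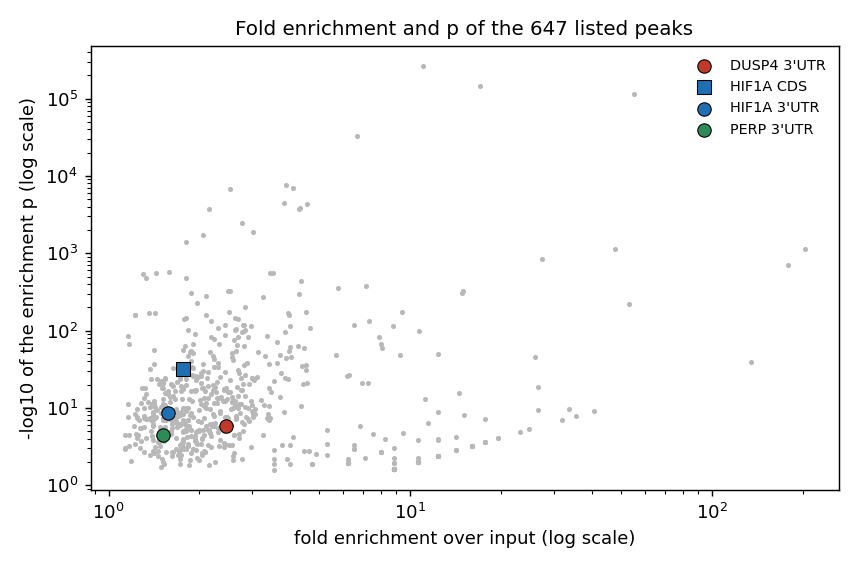
Fold enrichment over input against -log10 of the enrichment p (both log scales) for the 647 listed peaks, in grey, and the 4 peaks of DUSP4, HIF1A and PERP, in colour. The DUSP4 peak has the highest fold of the 4 at 2.46, and the HIF1A CDS peak has the smallest p at 4e-32.

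For each gene, the listed peaks of the same region nearest in fold to its highest peak were named. Next to DUSP4 stood ATP1B1, a subunit of the sodium-potassium pump, with a 3'UTR fold of 2.47. The other was LDHA, the lactate-producing enzyme of glycolysis, with a 3'UTR fold of 2.48. Next to the HIF1A CDS peak stood EIF2S2, a subunit of translation initiation factor eIF2, and SEC24B, a coat protein of vesicles leaving the endoplasmic reticulum, both at 1.77 and both among 6 genes tied at that value. Next to PERP stood MAT2A, which makes S-adenosylmethionine, at 1.51 and AKR1C2, an aldo-keto reductase, at 1.52. AKR1C2 was taken for its smaller p among genes tied at that fold. The MAT2A peak is not the highest of its gene, which reached 1.7 in the 3'UTR and 2.39 in the CDS. Likeness here means the size of 1 fold enrichment in 1 joint list.

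The other members of the same pathways were mostly not on the list. Of 8 lists with 136 genes in all, 133 are not DUSP4, HIF1A or PERP, and 6 of these (4.51%) had a listed peak. In the RefSeq annotation as a whole, 2.08% of protein-coding genes had one. The lists were written with earlier results of these data known, and their counts are descriptions. A gene without a listed peak has no value in the table, and its expression in these cells was not analysed here.

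On the DUSP4 side, none of the 11 MAP kinase phosphatases other than DUSP4, a gene chosen for the report, had a listed peak. The share over all protein-coding genes was 2.08%, so no other listed gene is a common outcome in a list this short. Among 20 genes of the ERK and stress MAP kinase cascade, only MAP3K7 had a listed peak. MAP3K7 (TAK1) activates the JNK and p38 branches. Its 3'UTR peak of 151 bases had a fold of 9.47, above that of DUSP4, with a log10 p of -4.76 that was weaker than the -5.8 of DUSP4. None of 17 feedback and early response genes of the ERK pathway, such as SPRY2, EGR1 and FOSL1, had a listed peak.

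On the HIF1A side, 4 of 17 genes of HIF subunits and oxygen sensing were listed, with HIF1A there by choice. The share over all protein-coding genes was 2.08%. The list was written with earlier results of these data known, so its count is a description and was not tested. Besides HIF1A, the listed genes were CREBBP, a coactivator of HIF, and HSP90AA1 and HSP90AB1, chaperones that stabilise HIF1A and many other client proteins. HSP90AA1 had 4 peaks with folds from 2.10 to 4.28. HSP90AB1 had 1 CDS peak at 2.64, and CREBBP had 1 CDS peak at 2.74. Both HIF1A peaks were thus the lowest of the 8 peaks in that list by fold. The other HIF subunits (EPAS1, HIF3A, ARNT), the prolyl hydroxylases (EGLN1 to EGLN3) and VHL, which marks HIF1A for degradation, had no listed peak. Of 25 genes induced by hypoxia, 2 were listed, both enzymes of glucose breakdown. GAPDH had a CDS peak at 1.38, and LDHA had a CDS peak at 1.24 beside its 3'UTR peak at 2.48. The HSP90, GAPDH and LDHA genes have close copies or pseudogenes, so reads may have been shared with them and their values are uncertain.

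On the PERP side, none of the 24 p53 targets other than PERP had a listed peak, nor did any of 7 genes of p53 and its regulators. PERP was there by choice. With 2.08% of all protein-coding genes listed, no other listed gene is a common outcome in lists this short. CDKN1A, MDM2 and BAX were among the genes without a listed peak. Among 16 desmosome genes, again none but PERP was listed, and the same share of all genes applies. DSP, JUP and PKP2 were among those without a listed peak.

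Markers of the cell line and of other cell types were checked in the same list. Over all protein-coding genes, 2.08% had a listed peak. The marker counts are descriptions and were not tested. Of 20 A549 and lung epithelial markers, 7 had a listed peak, led by KRT19, NQO1 and ALDH1A1, with folds from 1.16 to 53.2. Only KRT19 had folds above the 2.8 of NQO1, and the median over the 14 peaks of that list was 1.505. KRT7, KRT8, KRT18, EPCAM, CDH1, NKX2-1 and the surfactant genes had no listed peak. Of 13 smooth muscle markers, which a lung cancer line is not known for, 7 also had a listed peak, led by MYH11, TAGLN and DES, with folds from 3.42 to 135. The rest of that list, ACTA2, CNN1, MYLK, SMTN, LMOD1 and TPM2, had no listed peak. Some of these 7 genes rest only on peaks that did not reach an FDR under 0.05, at folds of 6.51 and 12.4. The MYH11 CDS peak at 17.7 and the DES 3'UTR peak at 16 did not reach it either. No listed peak fell on 6 fibroblast markers, and 1 of 8 immune and endothelial markers, the lysosomal gene CD68, had one at 15. All peaks of DUSP4, HIF1A and PERP had a lower fold than any peak of the smooth muscle markers. The part of RNA from other cells in the peaks of DUSP4, HIF1A and PERP was not tested.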

How the data were processed

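The authors aligned reads with STAR 2.7.10a to hg38, per the submitters' processing notes, and called and annotated peaks over input. The peak caller is not given in the sources used here. The authors deposited 1 table of 647 peaks for both libraries together, with the p-value of the enrichment, its log10 and the log10 of its FDR (each read as a score) and the fold enrichment as a ratio of pull-down to input. Base 10 was checked against the deposited p-value, which its log10 matched within 0.02 at the 616 peaks with p above 0. The authors' comparison, 3 columns that hold a log2 fold change of 1 library over the other with its log10 p and log10 FDR, was not used.

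Peak extents came from the block columns, with starts counted from 0. At all 411 single-block peaks, end minus start equalled the block size. Positions are printed counted from 1. Genes were matched by symbol to RefSeq (GRCh38.p14) for 584 peaks, of which 581 overlapped that gene. Percentiles give the share of listed peaks with a lower fold.

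DUSP4, HIF1A, PERP and the gene lists were chosen with earlier results of these data known. Named genes were those of the lists with a listed peak (the 3 highest in fold where over 5 had one) and, per gene, the 2 nearest in fold within the region. Genes named as having no listed peak were picked after the counts were seen. No test between samples was possible with 1 library a condition. Intervals are 95% Wilson intervals, which treat the listed peaks as independent, although 72 genes held 2 of them and 30 held more. Counting was tested on simulated data. Alternatives changed the peaks ranked, the measure, the thresholds, the overlap and the start. No sequence is shown, since no genome was used here. Analyses ran in Python 3.11.15 with pandas 2.3.3, scipy 1.17.1 and matplotlib 3.10.9.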

Additional observations from a re-analysis of the deposited data

How the results depend on the processing

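Of 34 alternatives computed, 19 left a share within the interval of its main value, a count within 1.5 times of it or a position at the same base. Some of these outcomes were fixed in advance, so the tally does not measure robustness. A stricter overlap could not add overlapping peaks, and the HIF1A distance does not use the start. The distances on the minus strand had to shift with the start. Ranked by the enrichment p in place of the fold, the shares of listed peaks below were 36.9% for DUSP4, 78.8% for the HIF1A CDS peak, 49.8% for the HIF1A 3'UTR peak and 28.9% for PERP, against 56.0%, 28.3%, 18.5% and 13.9% by fold, so the order of HIF1A and DUSP4 turned. Within the same region, the shares were 36.3% for the HIF1A CDS peak, 13.6% for the HIF1A 3'UTR peak and 9.81% for PERP. With 1 peak per gene, they were 49.7% for DUSP4, 22.7% for the HIF1A CDS peak and 10.02% for PERP, and 66.3% of peaks had a fold of at least 2. The HIF1A 3'UTR peak has no value there, nor PERP at an FDR under 0.01. A fold of at least 1.5 was reached by 86.4% of listed peaks and by all 4 peaks of the 3 genes, and a fold of at least 3 by 30.8% and by 0 of the 4. With starts counted from 1, the distances to the 3' end were 3177 bases for DUSP4 and 2548 for PERP. No paired analysis was possible because there is 1 library of each kind and no column is labelled with a single library. The unknown depth limits every value, since no interval can be given for a fold.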
